A study of Mus musculus with 10 samples.

Results

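The transcripts described here are 36 genes of glucose metabolism: the enzymes of glycolysis and of its reversal in gluconeogenesis, 3 enzymes of the pentose phosphate pathway, ketohexokinase, and the enzymes and carriers that handle lactate and pyruvate. They were chosen by name, and all 36 had a row among the 30431 rows of the authors' deposited tables. RNA was sequenced from whole mouse kidneys at postnatal day 21 in 3 groups: 4 wild-type animals (WT), 3 animals of genotype Pkhd1Cre; Pkd2 F/F (SM), and 3 of genotype Pkhd1Cre; Pkd2 F/F; miR-21null (DM). Pkd2 encodes polycystin-2, whose loss from tubule cells gives polycystic kidneys, and SM and DM share the Cre driver and the floxed Pkd2 alleles, whereas WT has neither by its label. Pkhd1Cre acts in collecting duct cells, so the kidneys also hold many cells outside the driver's range, and the labels do not say that animals were pooled.

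Glycolysis splits glucose to pyruvate and yields ATP without oxygen, lactate dehydrogenase interconverts pyruvate and lactate, and the pyruvate dehydrogenase complex passes pyruvate to the mitochondrial citric acid cycle. The kidney is, beside the liver, the main organ that makes glucose: proximal tubule cells take up lactate and other precursors and run gluconeogenesis through pyruvate carboxylase, phosphoenolpyruvate carboxykinase, fructose-1,6-bisphosphatase and glucose-6-phosphatase. The distal nephron and the inner medulla rely more on glycolysis, and polycystic kidney tissue has been described as more glycolytic, which makes these genes a usual point of inspection in such models.

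The authors deposited the results of 3 comparisons and values of single libraries were not used here, so the spread between the animals of a group cannot be shown and sequencing depth is unknown. The error given is the standard error (SE) implied by each likelihood ratio, and group levels in CPM (reads scaled to library size) were computed from the deposited average and fold changes. A gene is called, or said to rise or fall, where the adjusted p in the authors' deposited table (edgeR's likelihood ratio test, Benjamini-Hochberg over all rows) was below 0.05. SM versus WT and DM versus WT share the same WT libraries, so a like value in both is not a repeat of the finding. The p-values rest on the spread within groups of 3 or 4 animals. Pkd2 itself stood at -0.41 on the log2 scale (SE 0.20, adjusted p = 0.179) for SM versus WT in the authors' deposited table. Its value for DM versus WT was -0.49 in the authors' deposited table (SE 0.20, adjusted p = 0.0838), and the Mir21 row stood at the lowest level of the tables and checks nothing. The summed level of 8 collecting duct markers was 1012 CPM in WT, 1128 CPM in SM and 1060 CPM in DM, and 10 proximal tubule markers summed to 12658 CPM in WT, so markers of these kidney cell types were present in each group.

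Of the 36 genes, 14 were called in SM versus WT in the authors' deposited table, of which 11 were lower and 3 higher. Called rows made up 14.0% of all 30431 rows and 21.6% of the 15135 rows that averaged 1 CPM or more, with 12.2% higher and 9.47% lower. The members' shares were 38.9% called, 8.33% higher and 30.6% lower. In DM versus WT 11 members were called in the authors' deposited table, of which 8 were lower and 3 higher. The background there was 13.5% of all rows and 19.8% of the rows of at least 1 CPM, 11.3% higher and 8.53% lower. The lower calls thus took a larger share of these genes than of the rows of at least 1 CPM, and the higher calls did not. The median log2 fold change of the 36 genes in the authors' deposited tables was -0.29 in SM versus WT and -0.31 in DM versus WT, beside -0.01 and 0.00 for all rows of at least 1 CPM. Both comparisons called 10 of the members, another 4 passed in SM versus WT (Pgk1, Pfkfb2, Pck1 and G6pc) and 1 passed in DM versus WT (Pdha1). The direct test of DM versus SM, given below for those genes, called none of them. The share of all rows called in both comparisons was not computed, so these overlap counts have no background beside them.

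**Figure D1:**
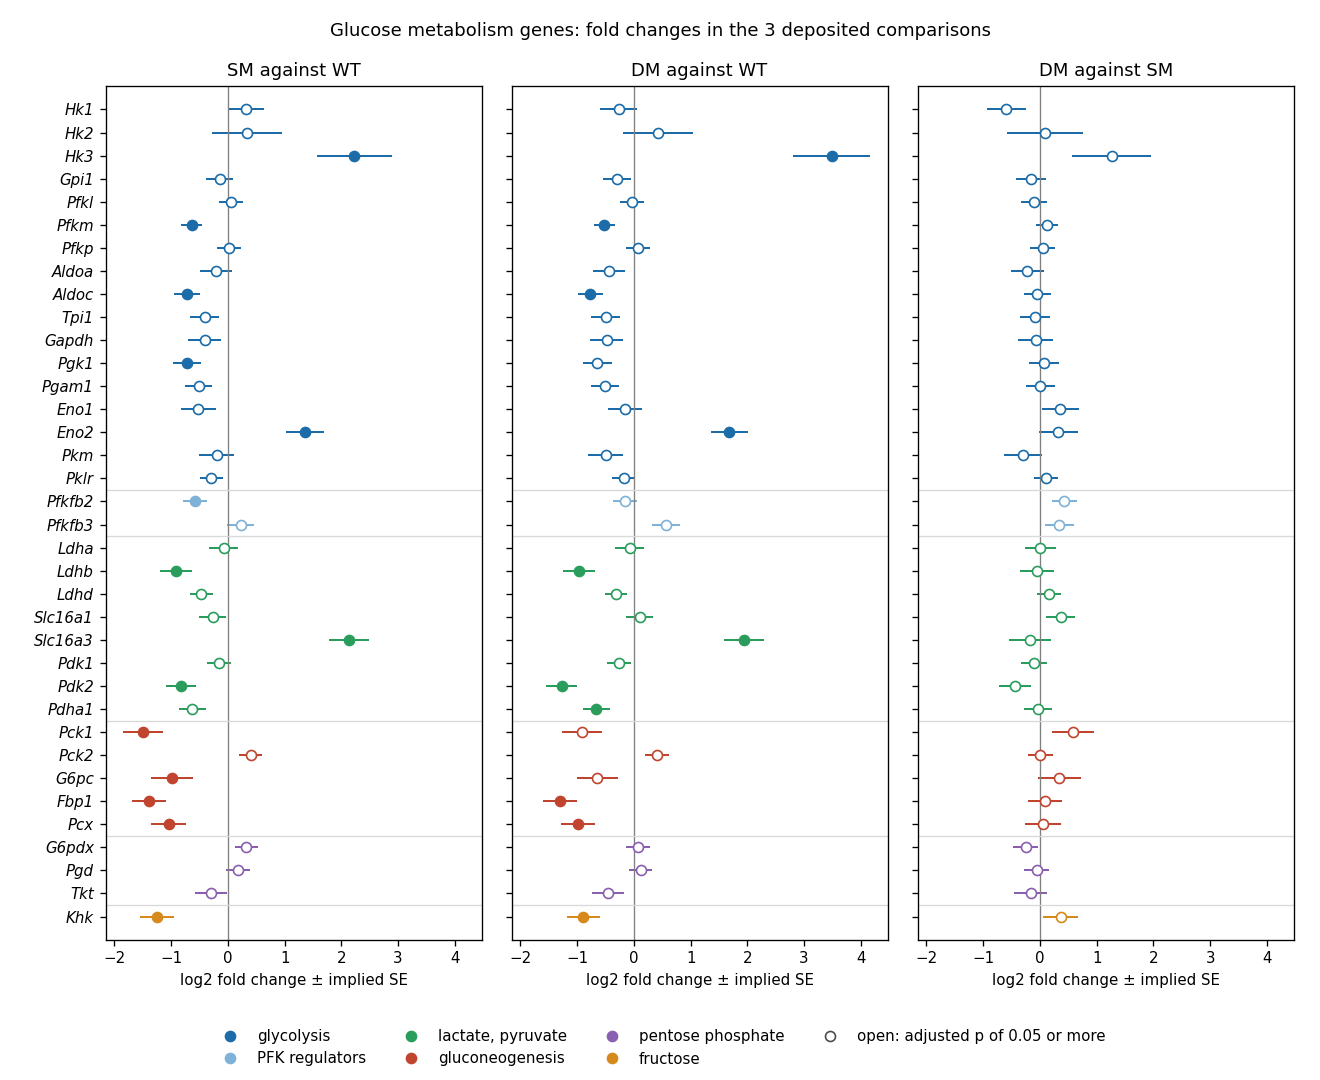
Log2 fold change of each of the 36 genes in the 3 deposited comparisons, with bars of 1 implied SE, coloured by role, and filled where the adjusted p was below 0.05. Gluconeogenesis genes other than Pck2 lie left of 0 in both comparisons with WT, Hk3, Eno2 and Slc16a3 lie far right, and in DM versus SM every point is open.

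The deepest decreases were in gluconeogenesis, where 4 of the 5 genes fell in SM versus WT and 2 of 5 fell in DM versus WT in the authors' deposited tables. These lower shares, 80% and 40%, stand beside 9.47% and 8.53% of all rows of at least 1 CPM. Together the 5 transcripts made up 6384 CPM in WT, 2476 CPM in SM and 3318 CPM in DM. The median log2 fold change of the 5 genes was -1.04 in SM versus WT and -0.91 in DM versus WT in the authors' deposited tables.

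Pck1 (chromosome 2, 173153048 to 173159273, plus strand, GRCm38) encodes the cytosolic phosphoenolpyruvate carboxykinase, which commits oxaloacetate to glucose synthesis. Its computed level was 4125 CPM in WT, 1463 CPM in SM and 2198 CPM in DM. In the authors' deposited tables its log2 fold change was -1.50 (SE 0.36, adjusted p = 0.000603) in SM versus WT and -0.91 (SE 0.35, adjusted p = 0.0653) in DM versus WT. Pck1 therefore fell in SM and missed the threshold in DM, whose level lay between those of SM and WT. The difference of DM from SM was 0.59 in the authors' deposited table, with a 95% interval of -0.13 to 1.31 from the implied SE, so a rise or no difference are both within it. Pck2, the mitochondrial isozyme, was the exception of the group, at 23.0 CPM in WT, 30.4 CPM in SM and 30.6 CPM in DM. Its log2 fold changes were 0.40 (SE 0.21, adjusted p = 0.228) in SM versus WT and 0.41 (SE 0.21, adjusted p = 0.211) in DM versus WT in the authors' deposited tables, neither of which passed.

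Fbp1 (chromosome 13, 62864753 to 62888282, minus strand) encodes fructose-1,6-bisphosphatase, the step that opposes phosphofructokinase. Its level was 1075 CPM in WT, 409 CPM in SM and 436 CPM in DM. The deposited log2 fold changes were -1.39 (SE 0.30, adjusted p = 9.57e-05, both in the authors' deposited table) in SM versus WT and -1.30 (SE 0.30, adjusted p = 0.000331) in DM versus WT. Both mutant groups were thus low for Fbp1 and lay close to each other. Pcx (chromosome 19, 4510472 to 4621752, plus strand), the pyruvate carboxylase that makes oxaloacetate from pyruvate, stood at 663 CPM in WT, 322 CPM in SM and 336 CPM in DM. Its values in the authors' deposited tables were -1.04 (SE 0.31, adjusted p = 0.00778) in SM versus WT and -0.98 (SE 0.31, adjusted p = 0.0137) in DM versus WT. Like Fbp1, Pcx fell in both.

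G6pc (chromosome 11, 101367561 to 101377903, plus strand) encodes the catalytic subunit of glucose-6-phosphatase, which releases free glucose from the cell. Computed levels of G6pc were 497 CPM in WT, 251 CPM in SM and 318 CPM in DM. The authors' deposited tables gave it -0.98 (SE 0.36, adjusted p = 0.0484) in SM versus WT and -0.65 (SE 0.36, adjusted p = 0.276) in DM versus WT. The call in SM lay at the edge of the threshold. With fold changes centred on the median of all rows of at least 1 CPM, G6pc, SM against WT had an adjusted p of 0.0519. For DM versus SM its value was 0.34 in the authors' deposited table, with a 95% interval of -0.40 to 1.08.

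Khk (chromosome 5, 30921431 to 30931248, plus strand), the ketohexokinase that phosphorylates fructose, fell in both comparisons. Its level was 372 CPM in WT, 156 CPM in SM and 201 CPM in DM. Its log2 fold changes in the authors' deposited tables were -1.25 (SE 0.30, adjusted p = 0.000527) in SM versus WT and -0.89 (SE 0.29, adjusted p = 0.0229) in DM versus WT. Khk thus fell as the gluconeogenic genes Fbp1 and Pcx did.

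These decreases stood beside a decrease of proximal tubule markers, and in whole kidneys fewer cells of a type and less RNA per cell cannot be told apart. Of 10 proximal tubule markers 8 fell in each comparison with WT in the authors' deposited tables, and Slc13a1 rose in SM versus WT. The list's median log2 fold change was -1.25 in SM versus WT and -1.19 in DM versus WT in the authors' deposited tables. Its summed level was 12658 CPM in WT, 5350 CPM in SM and 5582 CPM in DM. The markers with the highest levels, Slc34a1, Lrp2 and Aqp1, had values of -1.43, -1.07 and -0.85 in SM versus WT in the authors' deposited table. Other tubule segments were lower too: 4 of 6 markers of the thick ascending limb and distal tubule fell in each comparison with WT in the authors' deposited tables. Their median was -1.21 in SM versus WT and -0.87 in DM versus WT, and their summed level was 8693 CPM in WT, 4770 CPM in SM and 5442 CPM in DM. The markers with the highest levels, Umod, Slc12a1 and Egf, had -0.31, -1.01 and -2.18 in SM versus WT in the authors' deposited table. The part of these shifts in the values of Pck1, Fbp1, Pcx, G6pc and Khk was not tested.

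Liver also expresses these enzymes, and hepatocyte markers differed between the groups. Of 15 hepatocyte genes 11 fell and 2 rose in each comparison with WT in the authors' deposited tables, and their summed level was 510 CPM in WT, 331 CPM in SM and 304 CPM in DM. The hepatocyte genes of highest mean level were Cyp2e1, at 175 CPM in WT and 115 CPM in SM, Fga, at 27.8 CPM in WT and 103 CPM in SM, and Ttr, at 86.4 CPM in WT and 40.8 CPM in SM. Albumin (Alb), an abundant liver transcript named after its value was seen, stood at 132 CPM in WT, 0.328 CPM in SM and 1.03 CPM in DM, so this defining marker was near 0 in both mutant groups. The part of liver transcripts in the WT levels of the members was not tested.

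**Figure D2:**
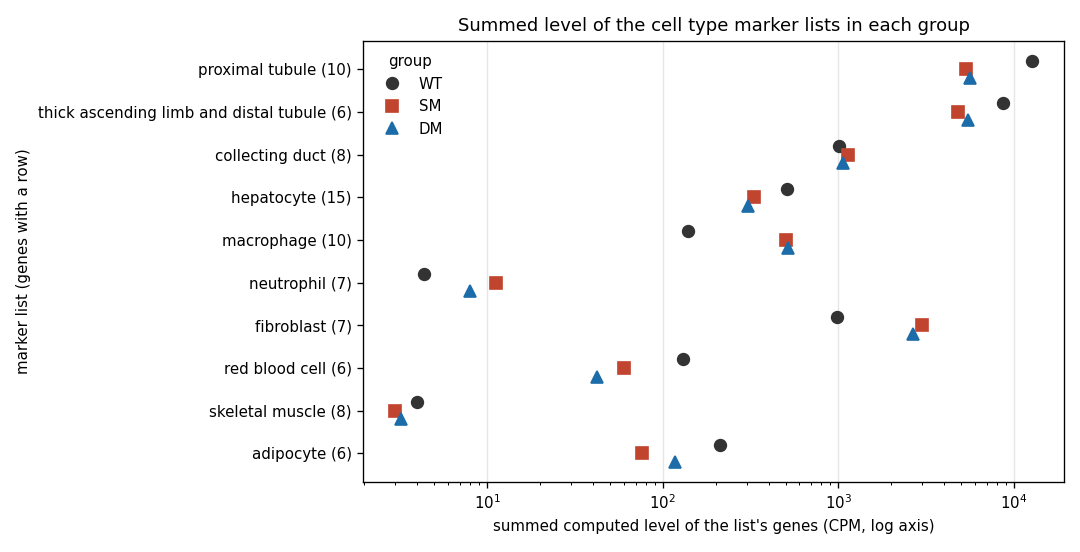
Summed computed level in CPM, on a log axis, of each list of cell type markers in WT, SM and DM, with the number of genes that had a row. Proximal tubule, thick ascending limb and hepatocyte sums are highest in WT, and macrophage and fibroblast sums are highest in the mutant groups. Collecting duct sums lie close together, but 3 of the 8 markers were called higher and 2 lower in SM versus WT. In DM versus WT 2 of them were called higher and 2 lower.

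Within glycolysis, decreases and increases were both called, and the 2 genes that rose were minor isozymes, as was Aldoc among those that fell. Of the 17 enzymes, 3 fell and 2 rose in SM versus WT and 2 fell and 2 rose in DM versus WT in the authors' deposited tables. The called shares, 29.4% and 23.5%, stand beside 21.6% and 19.8% of all rows of at least 1 CPM. The median log2 fold change of the 17 was -0.21 in SM versus WT and -0.30 in DM versus WT in the authors' deposited tables.

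Hexokinase 3 (Hk3, chromosome 13, 55005985 to 55021385, minus strand) is an isozyme of the first step that is known from myeloid cells. Its level was 0.403 CPM in WT, 1.89 CPM in SM and 4.53 CPM in DM. In the authors' deposited tables it rose by 2.23 (SE 0.67, adjusted p = 0.00919) in SM versus WT and by 3.49 (SE 0.68, adjusted p = 1.25e-05) in DM versus WT. These are low levels on which the implied SE is least reliable, and DM was 1.26 above SM in the authors' deposited table with a 95% interval of -0.09 to 2.61. Enolase 2 (Eno2, chromosome 6, 124760053 to 124769673, minus strand), the form known from neurons, also started low, at 1.61 CPM in WT, and reached 4.13 CPM in SM and 5.17 CPM in DM. Its rise was 1.36 (SE 0.33, adjusted p = 0.000867) in SM versus WT and 1.68 (SE 0.33, adjusted p = 1.51e-05) in DM versus WT in the authors' deposited tables.

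The 3 glycolytic enzymes that fell belong to different steps. Pfkm (chromosome 15, 98092589 to 98132451, plus strand), the muscle form of phosphofructokinase and so of the main control step, went from 69.9 CPM in WT to 44.8 CPM in SM and 48.7 CPM in DM. The deposited values for Pfkm were -0.64 (SE 0.19, adjusted p = 0.00727, both in the authors' deposited table) in SM versus WT and -0.52 (SE 0.19, adjusted p = 0.0397) in DM versus WT. Aldolase C (Aldoc, chromosome 11, 78322968 to 78327781, plus strand), the form known from brain, went from 44.6 CPM in WT to 27.1 CPM in SM and 26.2 CPM in DM. For Aldoc the authors' deposited tables gave -0.72 (SE 0.22, adjusted p = 0.0136) in SM versus WT and -0.77 (SE 0.22, adjusted p = 0.0077) in DM versus WT. Phosphoglycerate kinase 1 (Pgk1, chromosome X, 106187100 to 106203699, plus strand), the first ATP-yielding step, stood at 808 CPM in WT, 491 CPM in SM and 518 CPM in DM. It had -0.72 (SE 0.25, adjusted p = 0.033) in SM versus WT and -0.64 (SE 0.25, adjusted p = 0.0673) in DM versus WT in the authors' deposited tables. For Pgk1 the groups lay on either side of the threshold with close values, and DM differed from SM by 0.08 (95% interval -0.44 to 0.59) in the authors' deposited table.

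The other 12 enzymes of glycolysis (Hk1, Hk2, Gpi1, Pfkl, Pfkp, Aldoa, Tpi1, Gapdh, Pgam1, Eno1, Pkm and Pklr) passed in neither comparison. Their log2 fold changes in the authors' deposited table ran from -0.52 (Eno1) to 0.34 (Hk2) in SM versus WT. In DM versus WT they ran from -0.51 (Pgam1) to 0.43 (Hk2) in the authors' deposited table. Gapdh, the dehydrogenase often used as a reference transcript, stood at 1054 CPM in WT, 796 CPM in SM and 755 CPM in DM. Its values were -0.41 (95% interval -0.98 to 0.17) and -0.48 (95% interval -1.06 to 0.10) in the authors' deposited tables of SM and DM versus WT. Pkm, the pyruvate kinase whose spliced forms share a row, stood at 830 CPM in WT, 724 CPM in SM and 589 CPM in DM. Its intervals were -0.80 to 0.41 in SM versus WT and -1.10 to 0.11 in DM versus WT. Hk1, the main hexokinase of these kidneys, stood at 317 CPM in WT, 396 CPM in SM and 263 CPM in DM, with intervals of -0.30 to 0.94 and -0.90 to 0.36. A doubling of Gapdh, Pkm or Hk1 lay outside these intervals. A decrease of 1 log2 unit lay within those of Gapdh and Pkm in DM versus WT.

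Of the 22 members that did not pass in SM versus WT, 19 had a 95% interval within 1 log2 unit of 0, and of the 25 in DM versus WT, 18 did. The widest was that of Hk2, the inducible hexokinase, whose interval in SM versus WT ran from -0.87 to 1.55 at levels of 12.2 CPM in WT, 15.5 CPM in SM and 16.4 CPM in DM.

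**Figure D3:**
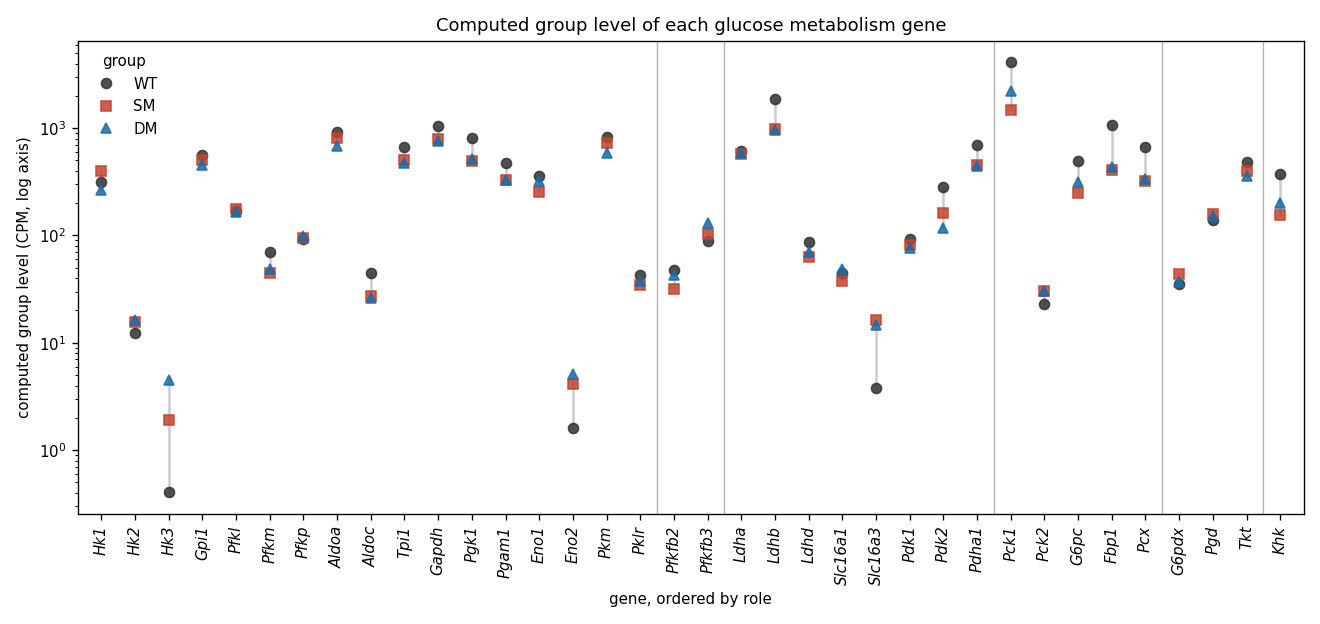
Computed level in CPM, on a log axis, of each gene in WT (circles), SM (squares) and DM (triangles), in the order of their roles. The mutant groups lie together and below WT for Ldhb, Fbp1 and Pcx, together and above WT for Slc16a3, and apart for Hk3 (0.403 CPM in WT, 1.89 CPM in SM, 4.53 CPM in DM) and Pck1.

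Phosphofructokinase is set by fructose 2,6-bisphosphate, which the bifunctional enzymes of the Pfkfb family make and remove. Pfkfb2 (chromosome 1, 130689182 to 130729253, minus strand) stood at 47.2 CPM in WT, 31.6 CPM in SM and 42.5 CPM in DM. It fell in SM versus WT, with -0.58 (SE 0.21, adjusted p = 0.0442), and had -0.15 (SE 0.21, adjusted p = 0.813) in DM versus WT in the authors' deposited tables. Its difference of DM from SM, 0.43 (95% interval -0.01 to 0.87) in the authors' deposited table, had the lowest unadjusted p of the 36 genes, 0.0544, with an adjusted p of 1. Pfkfb2 shares 17.4% of its exon bases with the gene model Gm29427 on the same strand, which has no row in the tables. Pfkfb3, the form with the highest kinase activity, stood at 88.8 CPM in WT, 104 CPM in SM and 132 CPM in DM. It passed in neither comparison, with 0.22 (adjusted p = 0.709) in SM versus WT and 0.57 (adjusted p = 0.112) in DM versus WT in the authors' deposited tables.

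Among the 8 genes of lactate and pyruvate handling, 1 rose and 2 fell in SM versus WT and 1 rose and 3 fell in DM versus WT in the authors' deposited tables. The higher share was 12.5% in each, beside 12.2% and 11.3% of all rows of at least 1 CPM. The lower shares were 25% and 37.5%, beside 9.47% and 8.53% of those rows. The gene that rose was Slc16a3 (chromosome 11, 120948480 to 120960868, plus strand), the monocarboxylate carrier MCT4, known for lactate export from glycolytic cells. Its level was 3.76 CPM in WT, 16.5 CPM in SM and 14.5 CPM in DM. The rise was 2.13 (SE 0.35, adjusted p = 1.19e-07) in SM versus WT and 1.95 (SE 0.35, adjusted p = 1.9e-06) in DM versus WT in the authors' deposited tables. It had the lowest adjusted p of the 36 genes in both. Slc16a1, the carrier MCT1, did not pass, at 45.1 CPM in WT, 37.5 CPM in SM and 48.4 CPM in DM.

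Ldhb (chromosome 6, 142490249 to 142507957, minus strand), the heart-type subunit of lactate dehydrogenase, fell from 1856 CPM in WT to 985 CPM in SM and 953 CPM in DM. Its values in the authors' deposited tables were -0.91 (SE 0.28, adjusted p = 0.0125) in SM versus WT and -0.96 (SE 0.28, adjusted p = 0.00823) in DM versus WT. Ldha, the muscle-type subunit, stood at 611 CPM in WT, 579 CPM in SM and 581 CPM in DM. For Ldha the authors' deposited tables gave -0.08 (95% interval -0.57 to 0.42) in SM versus WT and -0.07 (95% interval -0.57 to 0.42) in DM versus WT. The ratio of Ldha to Ldhb reads was thus 0.329 in WT, 0.588 in SM and 0.609 in DM, with Ldhb lower and Ldha not called. Ldhd, the dehydrogenase of D-lactate, passed in neither comparison, with -0.47 (adjusted p = 0.105) and -0.31 (adjusted p = 0.369) in the authors' deposited tables of SM and DM versus WT. Of its exon bases 42.2% overlap Znrf1 on the opposite strand, and the labels do not give the strand setting of the counting.

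Pdk2 (chromosome 11, 95026258 to 95041354, minus strand), a kinase that switches off pyruvate dehydrogenase, stood at 285 CPM in WT, 161 CPM in SM and 118 CPM in DM. It fell in both comparisons, by 0.83 (SE 0.27, adjusted p = 0.0206) in SM versus WT and by 1.27 (SE 0.27, adjusted p = 0.000114) in DM versus WT in the authors' deposited tables. Pdk1, the kinase known as a hypoxia target, passed in neither, at 91.9 CPM in WT, 82.4 CPM in SM and 76.7 CPM in DM. Pdha1 (chromosome X, 160122209 to 160138413, minus strand), the subunit that Pdk kinases phosphorylate, stood at 697 CPM in WT, 451 CPM in SM and 441 CPM in DM. It had -0.63 (SE 0.24, adjusted p = 0.0556) in SM versus WT and -0.66 (SE 0.24, adjusted p = 0.0414) in DM versus WT in the authors' deposited tables. The kinase and its substrate thus both had lower levels in the mutant groups. For Pdha1 the groups lay on either side of the threshold with nearly equal values, and DM differed from SM by -0.03 (95% interval -0.52 to 0.46) in the authors' deposited table.

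The increases of Hk3 and Slc16a3 stood beside an increase of macrophage markers. All 10 macrophage genes with a row rose in SM versus WT and 9 of 10 rose in DM versus WT in the authors' deposited tables, where Csf1r had an adjusted p of 0.193. Their summed level was 139 CPM in WT, 502 CPM in SM and 517 CPM in DM. The genes of highest level, Csf1r, Lyz2 and C1qb, had 0.54, 2.32 and 2.31 in SM versus WT in the authors' deposited table. Of 7 neutrophil genes with a row, 3 rose in SM versus WT and 1 in DM versus WT in the authors' deposited tables, at summed levels of 4.35 CPM in WT, 11.2 CPM in SM and 7.93 CPM in DM. The part of these cells in the values of Hk3 and Slc16a3 was not tested.

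A known response of glycolytic genes to low oxygen runs through the sequence ACGTG, a form of the core that hypoxia-inducible factors bind. It was searched on both strands (reverse complement CACGT) in the 250 bases before and 50 bases after each RefSeq start, a motif chosen after the values were seen. It lay in windows of 20 of the 36 members, 43.6% of their 55 windows, beside 19.6% of all 32851 windows. Windows were not matched for base composition and the motif is known from genes of this pathway, so the share is a description. The promoters of Slc16a3, which rose, and of Ldha, which did not pass, are shown because both hold the motif.
Slc16a3, chr11:120948817-120949116, plus strand: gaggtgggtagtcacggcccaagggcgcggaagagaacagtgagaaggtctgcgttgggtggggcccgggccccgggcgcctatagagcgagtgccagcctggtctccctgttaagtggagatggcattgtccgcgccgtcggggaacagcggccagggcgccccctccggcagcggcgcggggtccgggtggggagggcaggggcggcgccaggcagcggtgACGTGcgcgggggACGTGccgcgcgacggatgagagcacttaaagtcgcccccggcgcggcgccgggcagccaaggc
Ldha, chr7:46845554-46845853, plus strand: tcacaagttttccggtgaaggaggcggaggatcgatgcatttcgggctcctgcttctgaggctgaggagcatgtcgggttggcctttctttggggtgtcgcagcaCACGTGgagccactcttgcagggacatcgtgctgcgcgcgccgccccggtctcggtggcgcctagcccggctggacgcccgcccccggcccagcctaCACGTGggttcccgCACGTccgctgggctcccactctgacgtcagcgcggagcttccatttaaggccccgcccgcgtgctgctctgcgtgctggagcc
Capitals mark matches on either strand, and each sequence is written 5′ to 3′ on the strand of the gene, from RefSeq on GRCm38.p6. Slc16a3 has 2 matches, which begin 27 and 14 bases before the start, and Ldha has 5, of which overlapping pairs on opposite strands form the runs CACGTG. A match in this window thus went with a rise in Slc16a3 and with no call in Ldha. Among the other members with a match, Hk3 rose in SM versus WT in the authors' deposited table. Aldoc, Khk, Pcx, Pdk2, Pfkfb2, Pfkm and Pgk1 fell there, and the rest were not called. Of 14 hypoxia response genes outside glycolysis, 1 rose (Egln3) and 1 fell (Vegfa) in SM versus WT and 1 rose (Egln3) in DM versus WT in the authors' deposited tables. Called shares of this list, 14.3% and 7.14%, lie below the 21.6% and 19.8% of all rows of at least 1 CPM. Egln3, an oxygen-sensing hydroxylase, had 1.97 (SE 0.28, adjusted p = 4.31e-10) in SM versus WT and 1.27 (SE 0.28, adjusted p = 0.000171) in DM versus WT in the authors' deposited tables. Vegfa, the vascular growth factor, had -0.73 (adjusted p = 0.0104) and -0.58 (adjusted p = 0.0603) in the authors' deposited tables of SM and DM versus WT. The list's median was -0.08 in both comparisons.

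The pentose phosphate pathway supplies NADPH and ribose, and 0 of its 3 members passed in either comparison in the authors' deposited tables. At an unadjusted p below 0.05 the count was also 0. With 21.6% and 19.8% of all rows of at least 1 CPM called, 0 of 3 does not set these genes apart. G6pdx, the entry enzyme, stood at 35.0 CPM in WT, 43.8 CPM in SM and 36.7 CPM in DM. Its values were 0.32 (95% interval -0.08 to 0.72) and 0.07 (95% interval -0.33 to 0.47) in the authors' deposited tables of SM and DM versus WT. Pgd, the next dehydrogenase, had 0.17 (95% interval -0.24 to 0.59) and 0.12 (95% interval -0.29 to 0.53) in the authors' deposited tables. Tkt, the transketolase of the non-oxidative branch, had -0.30 (95% interval -0.84 to 0.24) and -0.46 (95% interval -1.0 to 0.08) in the authors' deposited tables. In SM versus WT none of these intervals reached the values of Fbp1 or Khk, although Khk's own interval, -1.84 to -0.67, overlapped that of Tkt. In DM versus WT the interval of Tkt reached the value of Khk (-0.89) and not that of Fbp1 (-1.30).

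Levels per kilobase of exon allow isozymes to be set beside each other, and families here hold all listed isozymes with a row. Among the 5 hexokinase genes Hk1 made up 92.0% of the family's level in WT, 89.7% in SM and 84.1% in DM, and Hk3 went from 0.271% in WT to 0.991% in SM and 3.36% in DM. The rise of Hk3 was thus large as a ratio and small as a share of hexokinase transcripts. Eno2 likewise stayed a small part of enolase, at 0.457% in WT, 1.63% in SM and 1.59% in DM. Aldoc, which fell, was also a small part of its family, aldolase, at 0.531% in WT, 0.646% in SM and 0.541% in DM. Pfkm made up 39.3% of phosphofructokinase in WT, 28.6% in SM and 31.3% in DM, with Pfkl, the liver form, at 47.6%, 56.4% and 53.0%. Pfkm was the member of the 3 that passed, and Pfkl and Pfkp did not.

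Ldha went from 13.5% of lactate dehydrogenase in WT to 21.8% in SM and 22.4% in DM. Among the lactate carriers Slc16a1, Slc16a3 and Slc16a7, the share of Slc16a3 was 2.05% in WT, 15.4% in SM and 12.4% in DM. Slc16a7, the carrier MCT2, made up 68.5% in WT, 42.4% in SM and 38.1% in DM, so its lower level enters the share of Slc16a3. Pdk2 made up 64.5% of the 4 Pdk kinases in WT, 45.4% in SM and 46.5% in DM. These shares have no error of their own, since they combine fitted levels without values per library.

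**Figure D4:**
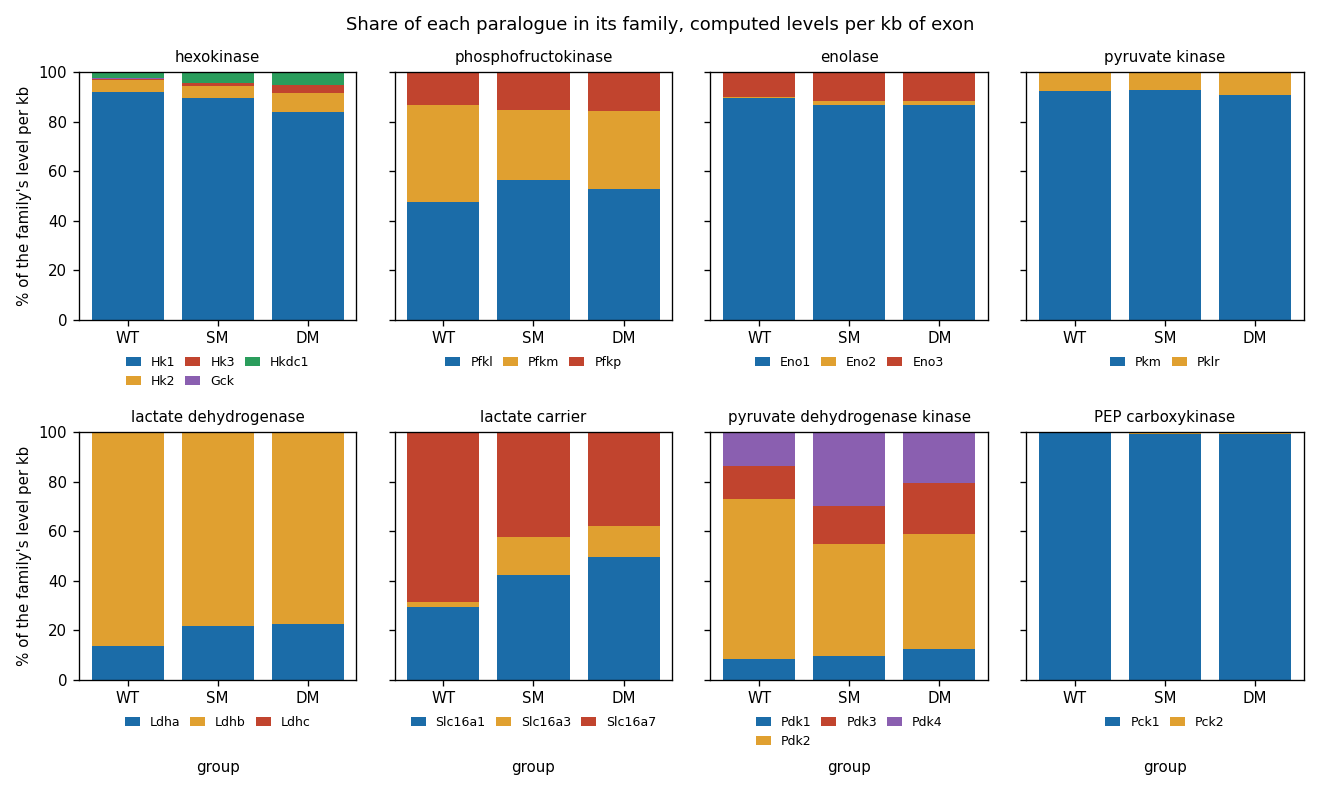
Share of each isozyme in its family's level per kilobase of exon in WT, SM and DM, as stacked bars that sum to 100%. The share of Slc16a3 among the 3 lactate carriers drawn (2.05% in WT, 15.4% in SM, 12.4% in DM) and that of Ldha grow in the mutant groups, and Hk1, Pkm and Pck1 make up most of their families in every group.

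Beyond the 36 genes, 107 names of other genes of glucose metabolism and its control were listed, of which 104 had a row. In SM versus WT 34 of them were called in the authors' deposited table (30 of them lower and 4 higher), with a median of -0.32. In DM versus WT 28 were called, 25 lower and 3 higher, with a median of -0.30 in the authors' deposited table. The called shares, 32.7% and 26.9%, stand beside 21.6% and 19.8% of all rows of at least 1 CPM. Lower calls made up 28.8% and 24.0%, beside 9.47% and 8.53% of those rows. The neighbouring steps therefore showed mostly lower calls, as the members did.

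Among the other pyruvate and lactate genes, 8 of 15 fell in SM versus WT and 7 of 15 fell in DM versus WT in the authors' deposited tables. These lower shares, 53.3% and 46.7%, stand beside 9.47% and 8.53% of all rows of at least 1 CPM. Slc16a7, which has a high affinity for its substrates, had -1.48 (SE 0.26, adjusted p = 1.21e-06) and -1.50 (SE 0.26, adjusted p = 9.79e-07) in the authors' deposited tables of SM and DM versus WT. Mpc1, a subunit of the mitochondrial pyruvate carrier, had -1.19 (adjusted p = 0.000152) and -1.0 (adjusted p = 0.00205) in the same order in the authors' deposited tables. Pdp2, the phosphatase that reverses Pdk kinases, had -0.97 (adjusted p = 1.6e-05) and -0.95 (adjusted p = 2.94e-05) in the authors' deposited tables. Mpc2, another subunit of the pyruvate carrier, had -1.04 (adjusted p = 0.0287) and -0.84 (adjusted p = 0.102) in the authors' deposited tables, and so passed in SM only. Thus transcripts of Slc16a7, of Mpc1, of the kinase Pdk2 and of an opposing phosphatase were lower together.

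Of 12 other gluconeogenesis genes 6 fell in SM versus WT and 4 fell in DM versus WT in the authors' deposited tables. These lower shares, 50% and 33.3%, stand beside 9.47% and 8.53% of all rows of at least 1 CPM. The genes that fell were led by the malate and aspartate enzymes that carry oxaloacetate out of mitochondria. Mdh1, the cytosolic malate dehydrogenase, had -1.44 (adjusted p = 0.000353) and -1.10 (adjusted p = 0.0103) in the authors' deposited tables of SM and DM versus WT. Mdh2, its mitochondrial partner, had -0.98 (adjusted p = 0.000603) and -0.90 (adjusted p = 0.00195) in the authors' deposited tables. Got1, the cytosolic aspartate aminotransferase, had -1.10 (adjusted p = 4.74e-05) and -0.73 (adjusted p = 0.0134), and Got2 had -0.84 (adjusted p = 0.00522) and -0.80 (adjusted p = 0.00976) in the authors' deposited tables.

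Fructose, sorbitol and glycerol genes had 3 of 6 lower in SM versus WT and 2 of 6 lower in DM versus WT in the authors' deposited tables, beside Khk. These lower shares, 50% and 33.3%, stand beside 9.47% and 8.53% of all rows of at least 1 CPM. Sord, the sorbitol dehydrogenase that makes fructose, had -1.05 (adjusted p = 0.00501) and -1.13 (adjusted p = 0.00217) in the authors' deposited tables of SM and DM versus WT. Gpd1, the cytosolic glycerol-3-phosphate dehydrogenase, had -1.29 (adjusted p = 0.000108) and -1.01 (adjusted p = 0.00379) in the authors' deposited tables. Dak, the triokinase that acts downstream of Khk, had -0.85 (adjusted p = 0.00505) and -0.31 (adjusted p = 0.51) in the authors' deposited tables. Transcripts for the formation and for the use of fructose were thus both among the decreases in SM.

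The other glycolysis genes had 3 of 13 lower and 1 higher in SM versus WT, and 2 lower in DM versus WT, in the authors' deposited tables. Called shares here, 30.8% and 15.4%, stand beside 21.6% and 19.8% of all rows of at least 1 CPM. Hkdc1, a hexokinase-like gene, had 1.18 (adjusted p = 0.0101) and 0.89 (adjusted p = 0.0773) in the authors' deposited tables of SM and DM versus WT. Pgam2, the muscle phosphoglycerate mutase, had -1.49 (adjusted p = 1.64e-08) and -1.61 (adjusted p = 1.12e-09) in the authors' deposited tables. Galm, the galactose mutarotase, had -0.71 (adjusted p = 0.00965) and -0.82 (adjusted p = 0.00239) in the authors' deposited tables. Skeletal muscle markers, which Pgam2 and Pfkm could also come from, summed to 3.98 CPM in WT, 2.99 CPM in SM and 3.24 CPM in DM, with 0 of 8 called in either comparison. At an unadjusted p below 0.05, 2 of these muscle genes passed in SM versus WT and 1 in DM versus WT.

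Of 8 other pentose phosphate genes 1 rose in SM versus WT and 0 passed in DM versus WT, where 2 had an unadjusted p below 0.05, in the authors' deposited tables. Called shares of this list were 12.5% and 0%, beside 21.6% and 19.8% of all rows of at least 1 CPM. The gene that rose was H6pd, the glucose-6-phosphate dehydrogenase of the endoplasmic reticulum, with 0.69 (adjusted p = 0.0283) and 0.50 (adjusted p = 0.165) in the authors' deposited tables. Of 16 glycogen genes 4 fell in SM versus WT and 5 fell in DM versus WT in the authors' deposited tables. As shares these are 25% and 31.25%. Of all rows of at least 1 CPM, 21.6% and 19.8% were called, and 9.47% and 8.53% were called lower. Gys2, the liver-type glycogen synthase, had -1.83 (adjusted p = 9.02e-06) and -1.92 (adjusted p = 2.29e-06) in the authors' deposited tables, at 6.50 CPM in WT. Pygl, the liver-type glycogen phosphorylase, had -0.79 (adjusted p = 0.000567) and -0.80 (adjusted p = 0.000532), and Pygm had -0.79 (adjusted p = 0.0275) and -0.84 (adjusted p = 0.0164) in the authors' deposited tables. Glycogen synthesis and breakdown genes were thus both among the lower calls, and the hepatocyte values given above stand beside those of Gys2 and Pygl.

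Of 20 regulators 5 fell and 1 rose in SM versus WT, and 5 fell and 2 rose in DM versus WT, in the authors' deposited tables. Called shares were thus 30% and 35%, beside 21.6% and 19.8% of all rows of at least 1 CPM. Myc, a transcription factor known to act on glycolytic genes, rose from 14.8 CPM in WT to 53.2 CPM in SM and 39.8 CPM in DM. Its log2 fold changes were 1.84 (adjusted p = 9.08e-06) and 1.42 (adjusted p = 0.00115) in the authors' deposited tables of SM and DM versus WT. Gcgr, the glucagon receptor, fell, with -1.45 (adjusted p = 2.99e-07) and -0.97 (adjusted p = 0.00119) in the authors' deposited tables. Mlxipl, the carbohydrate response factor ChREBP, had -0.87 (adjusted p = 0.00283) and -0.54 (adjusted p = 0.107), and Mtor had -0.62 (adjusted p = 0.021) and -0.72 (adjusted p = 0.00526) in the authors' deposited tables. Cebpb, a factor of gluconeogenic and inflammatory genes, had 0.25 (adjusted p = 0.614) in SM versus WT and rose by 0.84 (adjusted p = 0.00322) in DM versus WT in the authors' deposited tables.

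**Figure D5:**
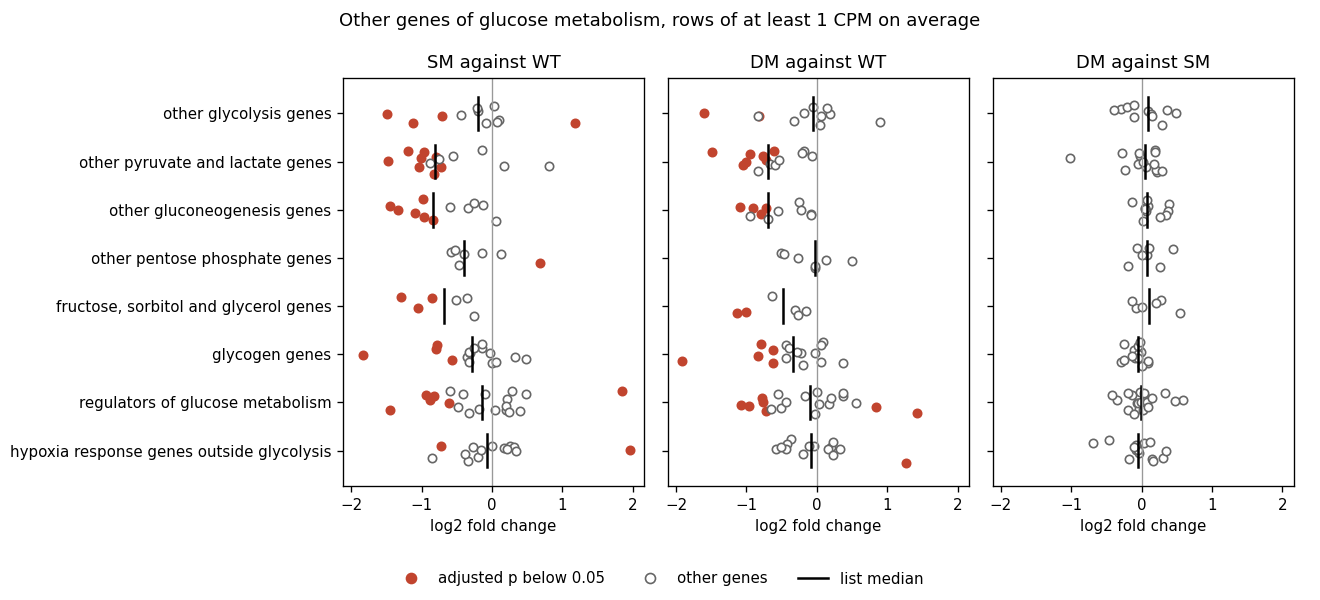
Log2 fold change of each other gene of glucose metabolism that averaged 1 CPM or more, by list, in the 3 comparisons, with filled points for an adjusted p below 0.05 and a bar at the list's median over the genes drawn. Filled points lie mostly left of 0 in the comparisons with WT (30 of 34 called genes lower in SM versus WT), and DM versus SM has none.

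The question of whether loss of miR-21 on top of Pkd2 changed these genes is addressed by DM versus SM. None of the 36 members and none of the 104 other genes was called in the authors' deposited table, where every member had an adjusted p of 1. Called rows made up 0.0789% of all rows, 24 of 30431. At an unadjusted p below 0.05 there were 0 of 36 members and 4 of 104 other genes in the authors' deposited table, beside 1140 of all 30431 rows. With an F reference in place of the chi-square, 0 rows of the table were called.

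The members' log2 fold changes of DM versus SM ran from -0.59 (Hk1) to 1.26 (Hk3) in the authors' deposited table. Of the 36 intervals, 29 lay within 1 log2 unit of 0. For Hk1 the interval was -1.26 to 0.08 and for Pdk2 it was -1.0 to 0.11, so each interval holds both 0 and values well below it. Fbp1 had 0.09 (95% interval -0.51 to 0.69), Pcx 0.06 (95% interval -0.56 to 0.68) and Slc16a3 -0.18 (95% interval -0.91 to 0.54) in the authors' deposited table. Khk had 0.37 (95% interval -0.24 to 0.97) in the authors' deposited table. All 5 gluconeogenesis genes had values above 0, from 0.01 for Pck2 to 0.59 for Pck1 in the authors' deposited table, and none passed. Of all 36 members 20 had values above 0, and of 10 proximal tubule markers 7 did, so the sign is not particular to this list. A miss of the threshold does not show that SM and DM were alike, and differences within these intervals were not detectable here.

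The calls against WT rest on the chi-square reference of the authors' test. With an F reference of 1 and 7 degrees of freedom, adjusted over all rows, 1 member (Slc16a3) stayed called in SM versus WT and 0 in DM versus WT, while the share of all rows called went from 14.0% to 2.24% and from 13.5% to 1.48%. Several glycolytic enzymes have processed pseudogenes or overlap other genes, so their reads could have been split or shared. Pkm overlaps Gm49759, which has no row, on the same strand over 15.3% of its exon bases. Overlaps on the opposite strand include Pklr with Hcn3 (22%), Pdha1 with Map3k15 (16.1%) and G6pdx with Ikbkg (13.6%). The libraries were stranded, so these matter if the counting ignored strand, a setting the labels do not give. The values are uncertain to that extent.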

How the data were processed

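RNA of frozen whole kidneys from 10 mice was turned into stranded libraries from total RNA, per the labels' protocols. Tools listed in the submitters' processing notes are edgeR 3.2.4, featureCounts, Subread 1.4.6, Cufflinks, TopHat2 2.0.12 and bcl2fastq 1.8.4, with mm10 as the build and without a stated role for any of them.

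The authors deposited 3 tables of comparisons, each with a log2 fold change and an average log2 CPM, a likelihood ratio score, a p-value and a false discovery rate, per the file headers. Testing on the tables showed a single fit of all 10 libraries, chi-square p-values and Benjamini-Hochberg adjustment over all 30431 rows. Groups came from the titles. No value per library was analysed, so no counting interval is given.

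Group levels, the implied SE (absolute log2 fold change over the root of the likelihood ratio) and normal 95% intervals were computed with Python 3.11.15, numpy 2.4.6, pandas 2.3.3 and scipy 1.17.1 and were tested on simulated data. They are approximate. Members are called at an adjusted p below 0.05. Exon lengths and positions are those of GENCODE mouse release 21, and promoters those of RefSeq, both on GRCm38, which mm10 names. Rows were matched by name, and the names Tigar, Tkfc and Gk had none. Tkfc is a later name of Dak, which had a row and is reported as Dak, so this gene is not missing. A row of Tigar or Gk under another name would have been missed. All members are accounted for, called members with full values. From each pathway list the called genes of lowest adjusted p are named, up to 3 higher and 3 lower in each comparison with WT, and from each marker list named beside a result the 3 of highest mean level. Members, lists and tests were chosen with earlier results of these data known. The 7 alternatives to the test are given in the closing section. A few items, among them another promoter motif searched, are not reported here.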

Additional observations from a re-analysis of the deposited data

How the results depend on the processing

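At an adjusted p threshold of 0.01, 8 members were called in SM against WT and 7 in DM against WT, and 17 of the other pathway genes in DM against WT. With an F reference of 1 and 7 degrees of freedom, 1 and 0 members and 4 and 1 of the other pathway genes were called in SM and DM against WT. Asking also for a log2 change of at least 1 left 7 and 5 members and 16 and 11 of the other pathway genes. Each of these is stricter by construction. The other settings were a threshold of 0.10, adjustment over rows of at least 1 CPM or over named rows, and centring. Centring was on the median of rows of at least 1 CPM. Under these settings the counts of members stayed between 13 and 15 in SM against WT and between 11 and 13 in DM against WT. No member changed sign under any of the 7 alternatives, and DM against SM had 0 called members in each.

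The planned repeat without each library in turn could not be run, because no value per library was analysed here. No paired analysis was possible because the groups share no replicate number. The depth is unknown, so whether a missed call reflects depth or spread was not tested. The implied SE is least reliable at low levels, as for Hk3 and Eno2.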
